A study of Drosophila melanogaster with 8 samples.

Results

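Cuticular protein genes were followed in RNA from adult heads of *Drosophila melanogaster*. They were taken by FlyBase symbol, as every gene whose symbol starts with Cpr and a digit, Ccp84, Lcp, Pcp, Edg or Twdl, together with *Acp1* (FBgn0014454). This gave 125 of the 17490 genes counted, of which 122 were annotated as protein coding and 3 as pseudogenes. A mean of 50 or more reads over the libraries was used to call a member well measured. It was reached by 20 members and missed by 105. The member just inside the limit was *Lcp65Ac*, with a mean of 67.3 reads, and the one just outside it was *Cpr64Aa*, with 47.6 reads.

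The insect cuticle is a layered material of chitin fibres in a protein matrix, secreted by the epidermis and renewed at each molt. Most of its proteins belong to the Cpr family, which share the Rebers and Riddiford chitin-binding domain and carry the cytological position of the gene in their names, and the *Lcp*, *Pcp*, *Ccp84* and *Edg* genes are earlier-named genes for larval, pupal and ecdysone-dependent cuticle proteins. The Tweedle (*Twdl*) proteins are a separate insect family named after mutants with a short, broad body. In adult heads, cuticle also forms the head capsule, the mouthparts, the bristles and the corneal lenses of the compound eye.

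The groups were *Obp56h*-/- females, *CSB* females, *Obp56h*-/- males and *CSB* males, with 2 replicate libraries each. The flies were 3 to 5 days old, and each library came from the heads of a pool of 50 flies, so the replicates are pools and the spread between flies was not measured. *Obp56h*-/- flies carry a CRISPR/Cas9 deletion of *Obp56h*, an odorant-binding protein gene, which was replaced by a cassette with the fluorescent marker DsRed under the eye-specific 3XP3 promoter. The deletion was made in the *CSB* (*Canton S-B*) background, and *CSB* flies without the deletion and the cassette were the control. Effects of the missing gene, of the cassette and of anything else that differs between this deletion line and *CSB* cannot be told apart. *Obp56h* had 1 and 0 reads in *Obp56h*-/- females, 0 and 0 in *Obp56h*-/- males, 54 and 90 in *CSB* females and 110 and 106 in *CSB* males.

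Libraries held between 10127941 and 25918919 counted reads, so that 3 reads, taken as the floor, corresponded to between 0.122 and 0.276 CPM (counts rescaled to one common library size, with TMM factors). Photoreceptor genes summed to between 30064 and 33149 CPM, neuronal genes to between 4450 and 6502 CPM and glial genes to between 486 and 676 CPM. Replicate 1 of *CSB* females and replicate 1 of *CSB* males stood apart. They had the most genes with reads, 16146 and 15602, although replicate 1 of *CSB* females had the fewest counted reads. More genes with reads were thus not limited to genes of a single tissue or stage. The 11 *Eig71E* genes, which are known from prepupal salivary glands, summed to 6.26 and 2.64 CPM in these libraries and to at most 0.875 CPM in the other 6. *Yp1*, a female yolk protein gene, was at 397 CPM in replicate 1 of *CSB* males and between 4.60 and 11.8 CPM in the other male libraries. Calls that were lost when these 2 libraries were left out are given with both values.

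A few genes held most of the cuticular protein signal. The 20 well-measured members held 95.9% of the mean reads of all members, and 5 of them held 77.4%. Per kb of transcript, *Cpr65Au* was the highest, with a mean of 571 CPM per kb over the 8 libraries. It was followed by *Cpr49Ag* with 220, *Cpr72Ec* with 198, *Cpr49Ae* with 124 and *Cpr67B* with 74.2 CPM per kb. *Cpr72Ec* encodes a protein of the corneal lens. These 5 genes made up 84.0% of the summed level per kb.

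Below them, levels per kb were 29.1 for *Cpr62Bb*, 25.7 for *Cpr47Ee*, 19.6 for *Acp1*, 16.6 for *Cpr73D* and 16.2 for *Cpr100A*. The Tweedle genes *TwdlT* and *TwdlG* were at 7.49 and 6.47 CPM per kb and the larval cuticle protein gene *Lcp65Ac* was at 6.76 CPM per kb, all within the range of the lower Cpr genes. Those were *Cpr11B* at 8.71, *Cpr62Bc* at 6.51, *Cpr97Eb* at 6.42, *Cpr49Af* at 4.24, *Cpr76Bc* at 3.71, *Cpr47Ef* at 3.65 and *Cpr92F* at 2.26 CPM per kb. The weak members had a median of 0.370 CPM per kb and a highest value of 3.42 CPM per kb, reached by *Edg91*. The 2 classes thus overlapped per kb, because the limit was set on reads and long genes collect more of them.

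**Figure D1:**
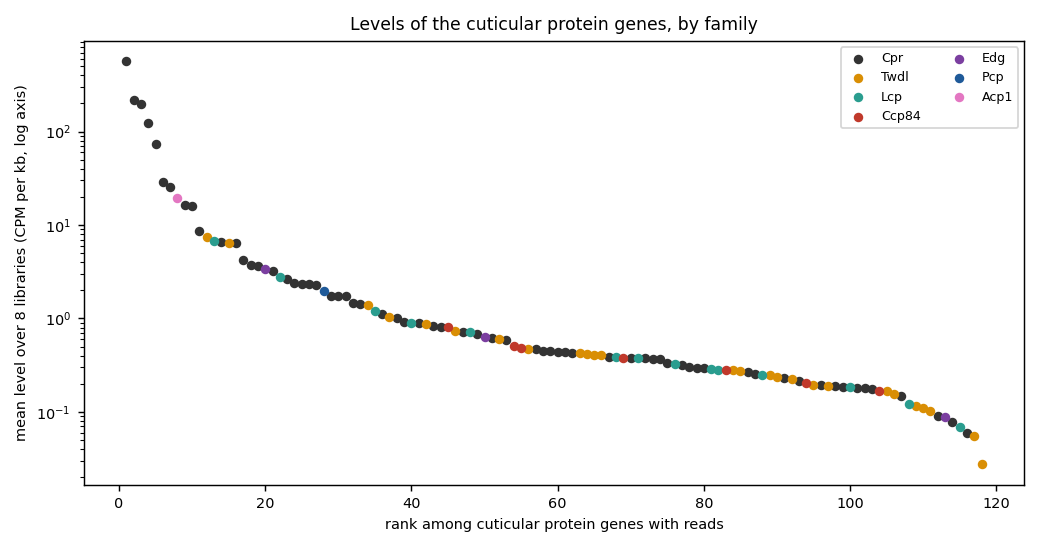
Mean level over the 8 libraries (CPM per kb, log axis) of the 118 cuticular protein genes with reads, in order of level and colored by family. The 5 highest, from 74.2 to 571 CPM per kb, are all Cpr genes, and the *Twdl*, *Lcp*, *Ccp84*, *Edg* and *Pcp* genes lie at 7.49 CPM per kb or below.

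By family, 16 of 70 Cpr genes were well measured, as were 2 of 26 *Twdl* genes, 1 of 17 *Lcp* genes and *Acp1*. None of the 7 *Ccp84* genes, the 3 *Edg* genes or the single *Pcp* gene was. The *Ccp84* genes averaged at most 12.1 reads. Of the 125 members, 7 had no read in any library. They were *Cpr57A*, *Cpr65Ax1*, *Cpr65Ax2*, *Cpr67Fb*, *Lcp65Ab1*, *Lcp65Ab2* and *Lcp65APsi*, named after their counts were seen. The *Cpr65Ax* and *Lcp65Ab* genes are pairs of near-identical copies, and only unique alignments were counted, so 0 reads on them is not a measure of their expression.

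Position in the genome was not used to choose the members. In the BDGP6 assembly, 47 members lay on 3L, 34 on 3R, 28 on 2R, 8 on 2L and 8 on X. With members no more than 20000 bp apart joined, 94 members fell into 17 clusters and 31 stood alone. Of the well-measured members, 13 were in clusters and 7 were alone. In none of the 17 clusters were all members well measured. The 65A cluster on 3L (6130386 to 6161589) held 18 members, among them *Cpr65Au*, the highest of all, and *Lcp65Ac*, while the 16 others were weak. The 49A cluster on 2R (12376626 to 12415170) held 8 Cpr genes, of which *Cpr49Ae*, *Cpr49Af* and *Cpr49Ag* were well measured. The largest Tweedle cluster, 12 genes on 3R (26619118 to 26641054), had no member above 0.414 CPM per kb.

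In females, 4 well-measured cuticular protein genes were higher in *Obp56h*-/- heads and none was lower. They were *Acp1*, which encodes an adult cuticle protein, and the Cpr genes *Cpr100A*, *Cpr49Ae* and *Cpr76Bc*. Over all 13536 genes tested, 1.03% passed in this comparison, 0.598% higher and 0.436% lower, and among genes with a mean of 50 or more reads 0.841% were higher. Of the 20 well-measured members, 20% passed, and no weak member did. In RNA from whole heads, a larger number of cells that express a gene and more RNA per cell cannot be told apart.

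*Acp1*, on 2L (7740562 to 7741537), was at 26.9 and 43.9 CPM in *Obp56h*-/- females, against 10.96 and 8.43 CPM in *CSB* females. The groups did not overlap. The log2 fold change was 1.88 (standard error 0.27, adjusted p = 5.94e-04 in edgeR's quasi-likelihood model, adjusted after Benjamini and Hochberg over all genes tested). Among the well-measured members, *Acp1* also varied the most over all libraries, with a highest value 9.99 times its lowest.

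*Cpr100A*, on 3R (30867521 to 30869184), was at 27.4 and 42.5 CPM in *Obp56h*-/- females and at 17.04 and 15.95 CPM in *CSB* females. Its log2 fold change was 1.08 (standard error 0.20, edgeR adjusted p = 0.00768). As for *Acp1*, the *Obp56h*-/- replicates were far apart and replicate 2 was the higher one.

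The most abundant gene that passed was *Cpr49Ae*, on 2R (12402216 to 12405108), at 174 and 179 CPM in *Obp56h*-/- females and at 101 and 103 CPM in *CSB* females. Replicates lay close together in both groups, and the log2 fold change was 0.80 (standard error 0.15, edgeR adjusted p = 0.0118). Its neighbors in the 49A cluster did not follow it. *Cpr49Ag* was at 139 and 160 CPM in *Obp56h*-/- females and at 153 and 133 CPM in *CSB* females, and *Cpr49Af* at 5.18 and 3.49 CPM and at 4.97 and 3.31 CPM in the same groups, so that the groups overlapped for both genes.

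*Cpr76Bc*, on 3L (19520945 to 19527272), was at 5.22 and 6.31 CPM in *Obp56h*-/- females and at 3.04 and 2.27 CPM in *CSB* females. Its log2 fold change was 1.15 (standard error 0.24, edgeR adjusted p = 0.0235). This was the least stable of the 4 calls, and it was lost with DESeq2, with limma's voom and in 8 further alternatives.

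The count of 4 depended on single female libraries. Without replicate 2 of *Obp56h*-/- females, without replicate 1 of *CSB* females or without replicate 2 of *CSB* females, 1 member passed, *Acp1* each time. Without replicate 1 of *CSB* in both sexes, the same 4 genes passed, with log2 fold changes of 2.07 for *Acp1*, 1.13 for *Cpr100A*, 0.79 for *Cpr49Ae* and 1.34 for *Cpr76Bc*. Without replicate 1 or without replicate 2 of *CSB* males, which enter this comparison only through the shared spread, filter and scaling, 7 members passed in females. Summed flight and leg muscle genes (4 of 4 with reads) were also higher in these females, at 37.9 to 39.4 CPM in *Obp56h*-/- females and 28.4 to 30.6 CPM in *CSB* females. Summed neuronal genes (4 of 4 with reads) were higher without overlap in both sexes, at 5441 to 6423 CPM in *Obp56h*-/- females against 4450 to 5348 CPM in *CSB* females and at 6429 to 6502 CPM in *Obp56h*-/- males against 5233 to 5244 CPM in *CSB* males. Summed midgut genes (5 of 5 with reads) were lower, at 5.43 to 5.93 CPM in *Obp56h*-/- females against 8.10 to 8.47 CPM in *CSB* females and at 5.22 to 7.65 CPM in *Obp56h*-/- males against 8.07 to 8.30 CPM in *CSB* males. Of these marker genes, all 4 muscle and all 4 neuronal genes but only 3 of the 5 midgut genes could be tested. None of those tested passed between genotypes within either sex, and the part of the marker genes in the result was not tested.

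**Figure D2:**
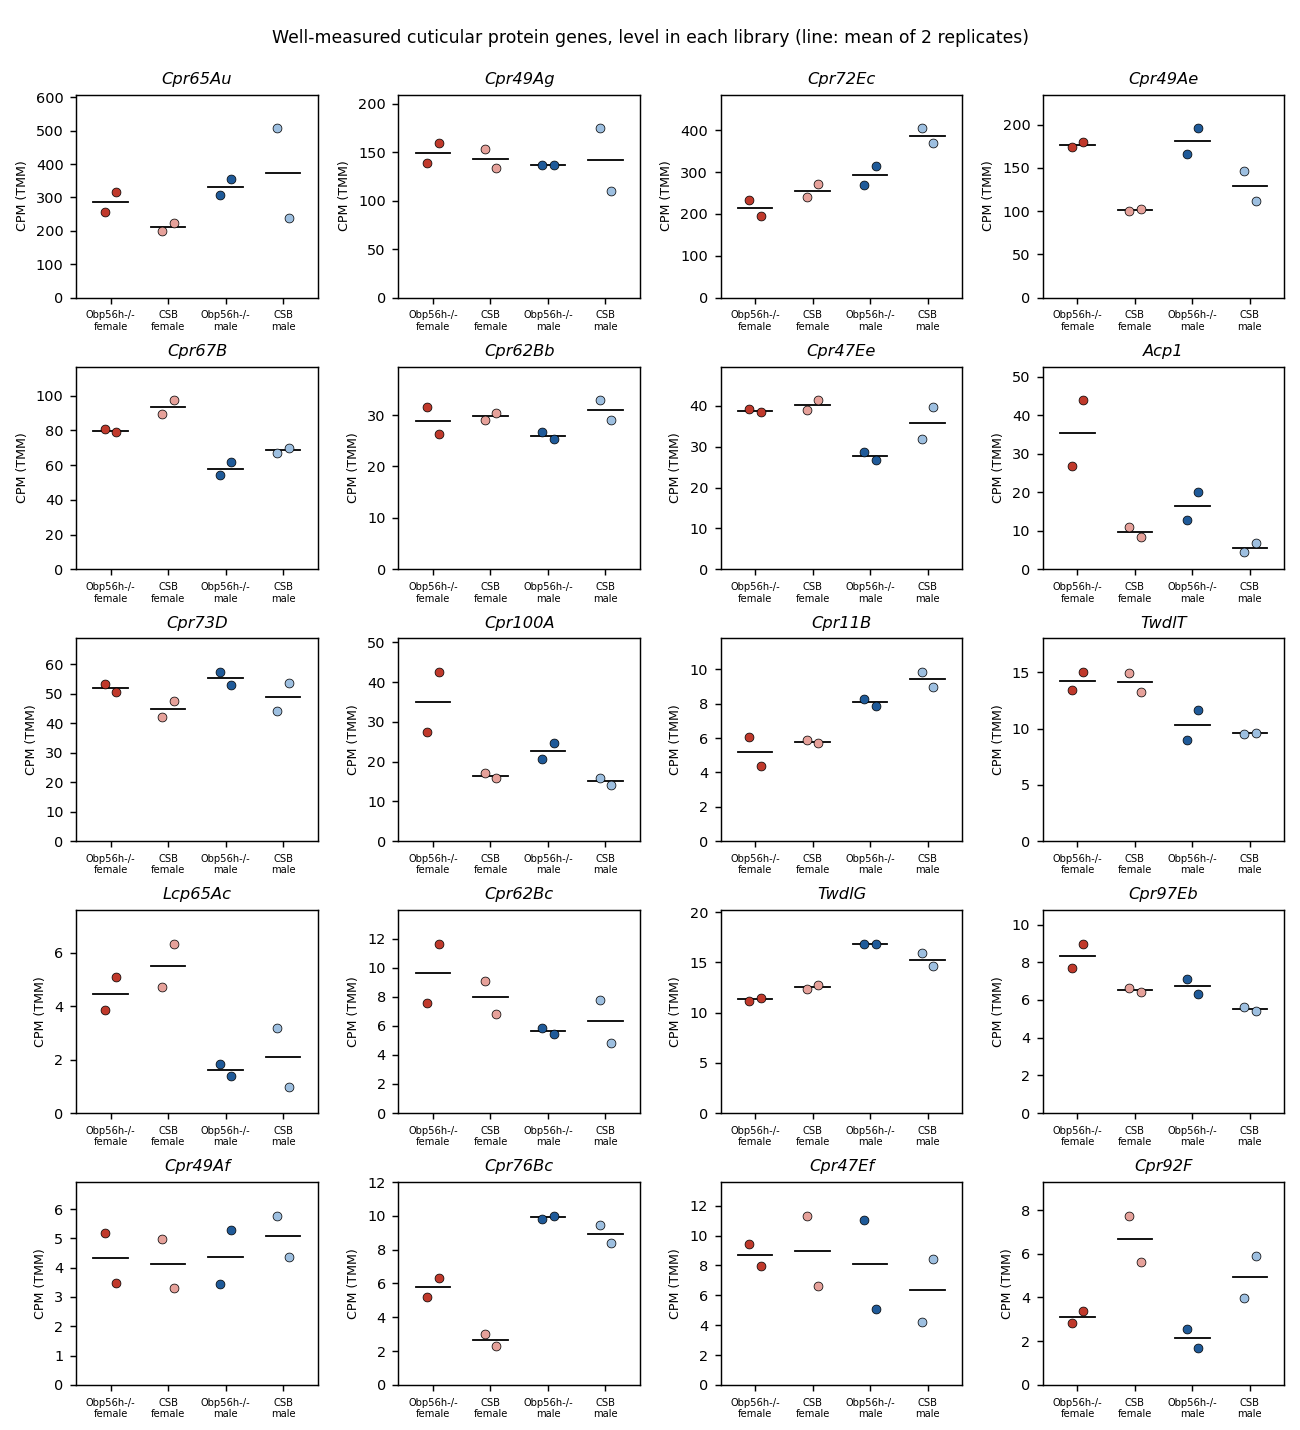
Level of each well-measured cuticular protein gene in each library (CPM scaled by TMM, linear axes from 0), with the groups in the order *Obp56h*-/- females, *CSB* females, *Obp56h*-/- males and *CSB* males. Points are libraries and lines are means of 2 replicates. *Acp1*, *Cpr100A* and *Cpr49Ae* lie higher in *Obp56h*-/- than in *CSB* libraries of both sexes, *Cpr92F* lies lower, and *Cpr76Bc* and *Lcp65Ac* separate by sex.

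In males, *Acp1* was the single member that passed, against 0.502% of all genes tested, 0.259% of all genes higher and 0.371% higher among genes with a mean of 50 or more reads. It was at 12.91 and 20.01 CPM in *Obp56h*-/- males and at 4.40 and 6.95 CPM in *CSB* males. The log2 fold change was 1.53 (standard error 0.27, edgeR adjusted p = 0.0105), and the groups did not overlap. Without replicate 2 of *Obp56h*-/- males it was 1.18 (edgeR adjusted p = 0.0830) and without replicate 1 of *CSB* in both sexes it was 1.27 (edgeR adjusted p = 0.186), so the call in males was lost in both cases. With replicate 1 or 2 of *Obp56h*-/- females, replicate 2 of *CSB* females or replicate 1 of *Obp56h*-/- males left out, 2 members passed in males, *Acp1* and *Cpr49Ac*. Without replicate 1 of *CSB* males 5 passed, and without replicate 2 of *CSB* males 4 passed.

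The other genes that passed in females had these values in males. *Cpr49Ae* was at 166 and 196 CPM in *Obp56h*-/- males and at 146 and 112 CPM in *CSB* males, with a log2 fold change of 0.49 (edgeR adjusted p = 0.309). *Cpr100A* was at 20.6 and 24.6 CPM in *Obp56h*-/- males and at 15.9 and 14.1 CPM in *CSB* males, with a log2 fold change of 0.59 (edgeR adjusted p = 0.372). Neither gene's groups overlapped, but the differences did not pass over all genes. Without replicate 1 of *CSB* in both sexes, *Cpr49Ae* was the single member that passed in males, with a log2 fold change of 0.72 (edgeR adjusted p = 0.0256). *Cpr76Bc* was at 9.84 and 10.003 CPM in *Obp56h*-/- males and at 9.45 and 8.41 CPM in *CSB* males, a small step without overlap.

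**Figure D3:**
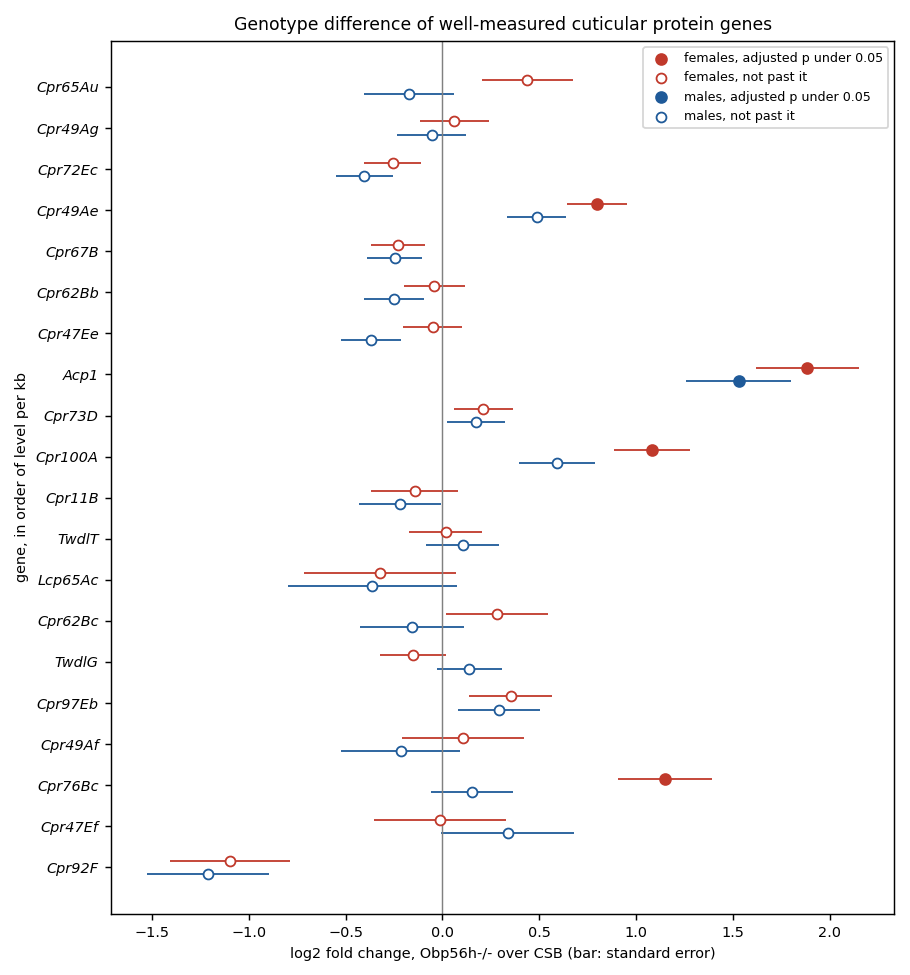
Log2 fold change of *Obp56h*-/- over *CSB* flies (bars are standard errors) for the 20 well-measured members, in females (red) and males (blue), with filled points where the adjusted p was under 0.05. Filled points are *Acp1* (1.88), *Cpr76Bc* (1.15), *Cpr100A* (1.08) and *Cpr49Ae* (0.80) in females and *Acp1* (1.53) in males, and *Cpr92F* is the lowest in both sexes (-1.10 and -1.21) without passing.

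*Cpr92F*, on 3R (20669571 to 20672821), was lower in every *Obp56h*-/- library than in every *CSB* library. It was at 2.82 and 3.38 CPM in *Obp56h*-/- females and at 7.74 and 5.62 CPM in *CSB* females. Males had 2.56 and 1.70 CPM in the *Obp56h*-/- libraries and 3.96 and 5.88 CPM in the *CSB* libraries. The log2 fold changes of -1.10 in females and -1.21 in males did not pass within either sex (edgeR adjusted p = 0.136 and 0.138). A contrast averaged over the sexes was added after these values were seen. Its passes, for *Cpr92F* and for the other members, restate the values within each sex and are no separate evidence.

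In this averaged contrast 6 members passed, against 1.93% of all genes tested (0.879% higher and 1.05% lower). *Acp1* (log2 fold change 1.71), *Cpr100A* (0.84), *Cpr76Bc* (0.65) and *Cpr49Ae* (0.64) were higher in *Obp56h*-/- flies. *Cpr92F* (-1.15, edgeR adjusted p = 0.00728) and the weak member *Cpr49Ac* (-3.48, edgeR adjusted p = 0.0184) were lower. *Cpr49Ac* had 2, 22, 1 and 2 reads in the *Obp56h*-/- libraries against 41, 14, 66 and 41 in the *CSB* libraries, through which it entered the test, so its pass is not read as a genotype difference. Leaving out replicate 1 of *CSB* females ended the calls of *Cpr92F* (-1.02, edgeR adjusted p = 0.0691), of *Cpr49Ac* (-2.56, edgeR adjusted p = 0.218) and of *Cpr76Bc* (0.76, edgeR adjusted p = 0.0748), and 3 members then passed. With replicate 1 of *CSB* left out in both sexes, *Cpr92F* passed (-1.15, edgeR adjusted p = 0.0272) and *Cpr49Ac* did not (-2.31, edgeR adjusted p = 0.227). The call of *Cpr76Bc* was also lost without each of the other female libraries and each *Obp56h*-/- male library (edgeR adjusted p of 0.0591 to 0.160). With replicate 2 of *CSB* females left out 10 members passed, and with replicate 2 of *CSB* males left out 13 did. *Acp1*, *Cpr100A* and *Cpr49Ae* passed in this contrast under every alternative tried.

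The 20 well-measured members, those that passed included, lay on both sides of 0. In females, 7 of 20 were without overlap higher and 4 of 20 lower in *Obp56h*-/- flies, against 26.6% higher and 14.6% lower among genes with a mean of 50 or more reads. The 7 include the 4 genes that passed in females. In males the counts were 6 of 20 higher and 6 of 20 lower, against 21.5% and 16.4% of such genes. The median log2 fold change of the 20 members was 0.04 in females, against -0.03 over all genes tested and 0.06 over those with 50 or more reads. In males it was -0.11, against -0.05 and 0.02, and without replicate 1 of *CSB* males it was 0.21. With library size alone as scaling, which moved the median of all genes to -0.14 in both sexes, the members' median was -0.08 in females and -0.20 in males. In females it was also below 0, at -0.05, without replicate 2 of *CSB* females and at -0.01 with at least 10 reads required in every library.

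The 2 most abundant members by reads did not pass in either sex. *Cpr72Ec* was at 233 and 195 CPM in *Obp56h*-/- females against 239 and 272 CPM in *CSB* females, and at 270 and 315 CPM in *Obp56h*-/- males against 404 and 370 CPM in *CSB* males. It was thus below its control without overlap in both sexes, with a log2 fold change of -0.40 in males (edgeR adjusted p = 0.421). *Cpr65Au* was at 257 and 317 CPM in *Obp56h*-/- females against 199 and 223 CPM in *CSB* females, and at 307 and 355 CPM in *Obp56h*-/- males against 507 and 239 CPM in *CSB* males. The *CSB* male replicates of this gene lay further apart than the means of any pair of groups.

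An exon of *Cpr65Au* overlaps the antisense RNA *asRNA:CR46005*, which had 0.163 to 1.81 CPM. *Cpr73D* overlaps *Ogdh* on the opposite strand, which had 515 to 677 CPM, against 42.2 to 57.2 CPM for *Cpr73D*. Whether reads were counted by strand is not given in the sources used here, so the level of *Cpr73D* is uncertain.

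By edgeR, 0 of 81 members tested passed the interaction between genotype and sex, against 0.0369% of all genes, and 2 had an unadjusted p under 0.05 (3.05% of all genes did), *Cpr76Bc* (male minus female difference in log2 fold change -0.997) and *Cpr49Ac* (-3.51). The likelihood ratio test, DESeq2 and limma's voom also gave 0. Leaving out replicate 2 of *CSB* males gave 1, *Cpr65Au*. *Acp1* passed in both sexes, and for *Cpr100A* and *Cpr49Ae*, which passed in females but not in males, a difference between the sexes was not shown.

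Between the sexes, averaged over the genotypes, 9 members passed, 4 higher and 5 lower in males, of 81 tested, against 6.74% of all genes tested (2.05% higher and 4.69% lower). Of the 20 well-measured members 8 passed, against 9.42% of genes with a mean of 50 or more reads. The 8 genes are on 4 chromosome arms and belong to the Cpr, *Twdl*, *Lcp* and *Acp1* groups.

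Among the well-measured members, *Cpr76Bc* had the highest log2 fold change of males over females, 1.28 (standard error 0.16, edgeR adjusted p = 3.85e-05). As given above, its 4 male libraries were between 8.41 and 10.003 CPM and its 4 female libraries between 2.27 and 6.31 CPM. In *CSB* alone the log2 fold change was 1.78 (edgeR adjusted p = 3.12e-04), and in *Obp56h*-/- alone it was 0.79 (edgeR adjusted p = 0.0594). The difference between these is the interaction above, which did not pass.

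*Cpr72Ec*, of the corneal lens, was higher in males by 0.52 on the log2 scale (standard error 0.10, edgeR adjusted p = 0.00329), and in *CSB* alone by 0.60 (edgeR adjusted p = 0.0325). The averaged call held under every alternative tried. The call in *CSB* was lost without replicate 1 of *CSB* females (0.51, edgeR adjusted p = 0.226), without replicate 2 of *CSB* females (0.63, edgeR adjusted p = 0.0774), without replicate 1 of *Obp56h*-/- males (0.61, edgeR adjusted p = 0.0663) without replicate 1 of *CSB* males (0.48, edgeR adjusted p = 0.0691) and without replicate 1 of *CSB* in both sexes (0.43, edgeR adjusted p = 0.269). *Cpr11B*, on the X, was at 8.30 and 7.86 CPM in *Obp56h*-/- males against 6.04 and 4.37 CPM in *Obp56h*-/- females, and at 9.83 and 8.99 CPM in *CSB* males against 5.89 and 5.70 CPM in *CSB* females (log2 fold change 0.66, edgeR adjusted p = 0.0114). *TwdlG* was at 14.6 to 16.8 CPM in males and 11.2 to 12.8 CPM in females (log2 fold change 0.43, edgeR adjusted p = 0.0365). The sexes did not overlap for either gene. The call of *Cpr11B* was lost without replicate 2 of *Obp56h*-/- females (edgeR adjusted p = 0.0830) and without replicate 2 of *CSB* females (edgeR adjusted p = 0.0715).

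Lower in males were *Acp1*, *Lcp65Ac*, *Cpr67B*, *TwdlT* and the weak member *Edg91*. *Lcp65Ac* was at 1.82 and 1.38 CPM in *Obp56h*-/- males against 3.84 and 5.09 CPM in *Obp56h*-/- females, and at 3.19 and 0.972 CPM in *CSB* males against 4.70 and 6.32 CPM in *CSB* females. Its log2 fold change was -1.45 (standard error 0.30, edgeR adjusted p = 0.00397). For *Acp1* it was -0.92 (edgeR adjusted p = 0.00415), and without replicate 1 of *CSB* in both sexes it was -0.69 and did not pass (edgeR adjusted p = 0.0892). Within *Obp56h*-/- flies, *Acp1* was the single member that passed, at -1.10 (edgeR adjusted p = 0.0171), against 3.19% of all genes. That call was lost without replicate 2 of *Obp56h*-/- females (-0.71, edgeR adjusted p = 0.289) and without replicate 1 of *Obp56h*-/- males (-0.82, edgeR adjusted p = 0.158).

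*Cpr67B* was at 54.2 to 70.0 CPM in males and 78.9 to 97.3 CPM in females (log2 fold change -0.45, edgeR adjusted p = 0.00724). It did not pass without replicate 1 of *Obp56h*-/- females (edgeR adjusted p = 0.0590) or without replicate 1 of *Obp56h*-/- males (edgeR adjusted p = 0.130). *TwdlT* was at 8.95 to 11.6 CPM in males and 13.3 to 15.01 CPM in females (log2 fold change -0.51, edgeR adjusted p = 0.0252). The 2 well-measured Tweedle genes thus differed between the sexes in opposite directions, and both calls were lost in many alternatives, *TwdlG* in 14 and *TwdlT* in 9 of 20. Replicate 2 of *CSB* males was the single library without which *TwdlG* still passed (edgeR adjusted p of 0.0576 to 0.166 without each of the others), and *TwdlT* did not pass without replicate 1 or 2 of *Obp56h*-/- females, replicate 1 of *CSB* females or replicate 1 of *Obp56h*-/- males (edgeR adjusted p of 0.0849 to 0.227). Without replicate 1 of *CSB* in both sexes neither passed (0.38 for *TwdlG* and -0.47 for *TwdlT*, edgeR adjusted p = 0.0829 and 0.0844). Within *CSB* flies 3 members passed, *Cpr76Bc*, *Cpr72Ec* and *Edg91*, against 2.9% of all genes. The *CSB* call of *Edg91* was lost without replicate 1 of *CSB* females (-2.28, edgeR adjusted p = 0.111) and without replicate 1 of *CSB* in both sexes (-2.30, edgeR adjusted p = 0.138).

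**Figure D4:**
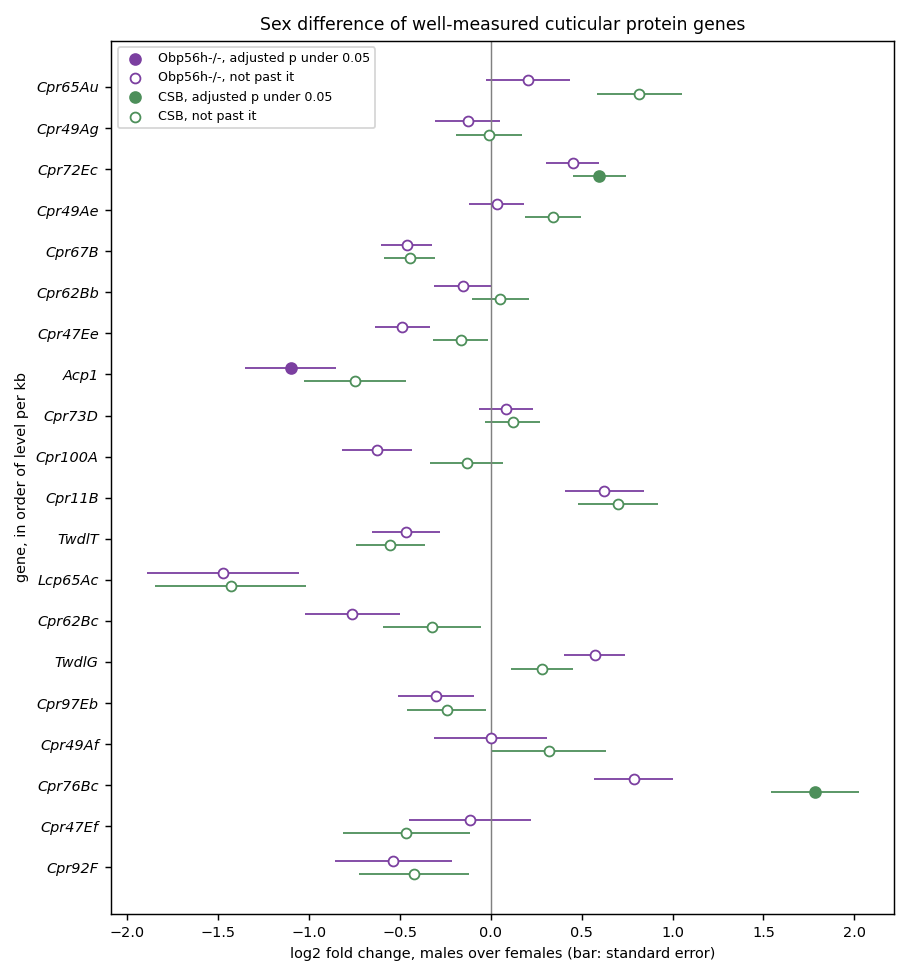
Log2 fold change of males over females (bars are standard errors) for the 20 well-measured members, in *Obp56h*-/- flies (purple) and *CSB* flies (green), with filled points where the adjusted p was under 0.05. *Cpr76Bc* is the furthest to the right in *CSB* (1.78) and *Lcp65Ac* the furthest to the left in both genotypes (-1.47 and -1.43), and *Acp1* passed in *Obp56h*-/- alone (-1.10).

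*Edg91*, an ecdysone-dependent gene for a glycine-rich cuticle protein on 3R (17610856 to 17611511), was the weak member with the clearest sex difference. It was at 0.186 and 0.670 CPM in *Obp56h*-/- males against 1.63 and 1.27 CPM in *Obp56h*-/- females, and at 0.879 and 0.875 CPM in *CSB* males against 6.72 and 4.30 CPM in *CSB* females. The log2 fold change of males over females was -2.19 (standard error 0.39, edgeR adjusted p = 0.00111) and was -2.02 without replicate 1 of *CSB* in both sexes (edgeR adjusted p = 0.0128). In *CSB* alone it was -2.63 (edgeR adjusted p = 0.00866). Between genotypes in females it was -1.90 and did not pass (edgeR adjusted p = 0.0913). It passed with any male library left out, but male libraries enter this comparison only through the shared spread, filter and scaling. With any female library left out it did not pass. The log2 fold change was then -2.09 without replicate 1 and -1.71 without replicate 2 of *Obp56h*-/- females. It was -1.55 without replicate 1 and -2.22 without replicate 2 of *CSB* females. Without replicate 1 of *CSB* in both sexes it was -1.55 and did not pass either.

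*Cpr49Ac*, a weak member of the 49A cluster on 2R (12386666 to 12390057), had 1 and 2 reads in *Obp56h*-/- males against 66 and 41 reads in *CSB* males. The *CSB* male libraries were at 3.63 and 1.99 CPM, and their mean was 20.5 times the mean floor of 3 reads in *Obp56h*-/- males. The higher value was in replicate 1, which stood apart as described above. The test within males did not pass (edgeR adjusted p = 0.0581). As the gene entered the test through the *CSB* libraries, no genotype difference is read from this gene. In females it had 2 and 22 reads in *Obp56h*-/- flies against 41 and 14 reads in *CSB* flies, and the groups overlapped. *Cpr49Ac* lies 12.2 kb from *Cpr49Ae*.

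The 105 weak members had reads more often and a higher summed level in *CSB* libraries. Of these, 78 and 59 had reads in *Obp56h*-/- females, against 98 and 81 in *CSB* females, and 63 and 67 in *Obp56h*-/- males, against 84 and 80 in *CSB* males. Over all 17490 genes counted, 15155 and 14378 had reads in *Obp56h*-/- females, against 16146 and 15268 in *CSB* females. In males the counts over all genes were 14593 and 14552 against 15602 and 15306. More genes with reads in *CSB* libraries was thus not particular to the weak members. The summed level of the weak members was 40.7 and 41.5 CPM in *Obp56h*-/- females, against 121 and 43.8 CPM in *CSB* females. In males it was 34.1 and 35.2 CPM in *Obp56h*-/- flies, against 78.2 and 48.7 CPM in *CSB* flies. The *CSB* values were highest in replicate 1 of each sex, where the *Eig71E* genes were highest too, and their part in the difference was not tested. Replicate 2 was close to the *Obp56h*-/- libraries in *CSB* females and above both of them in *CSB* males.

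With the reads per kb on the 11 *Eig71E* genes subtracted from each weak member, an alternative chosen after seeing the data, the sums were 37.6 and 41.5 CPM in *Obp56h*-/- females against 44.3 and 41.6 CPM in *CSB* females, and 30.4 and 34.2 CPM in *Obp56h*-/- males against 46.9 and 38.3 CPM in *CSB* males. With the longer list of 26 genes of salivary glue, prepupal glands and eggshell, the order turned round, in females by a very narrow margin. The sums were 15.3 and 17.7 CPM in *Obp56h*-/- females against 12.3 and 15.2 CPM in *CSB* females, and 13.3 and 16.4 CPM in *Obp56h*-/- males against 10.6 and 11.9 CPM in *CSB* males. Values that fell below 0 on subtraction were set to 0. This list also held genes with reads in every library, such as *Sgs4* at 2.42 to 3.88 CPM and *Sgsh* at 2.69 to 4.47 CPM. *Sgs1*, a salivary glue gene of this list, was itself lower in *Obp56h*-/- females, at 3.84 and 2.82 CPM against 32.9 and 6.61 CPM in *CSB* females (log2 fold change -2.51, edgeR adjusted p = 0.0124). Of the 105 weak members 61 could be tested. Only 28 of these would have entered on the *Obp56h*-/- libraries alone and 57 on the *CSB* libraries alone, so no count or median over them is read as a genotype difference.

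**Figure D5:**
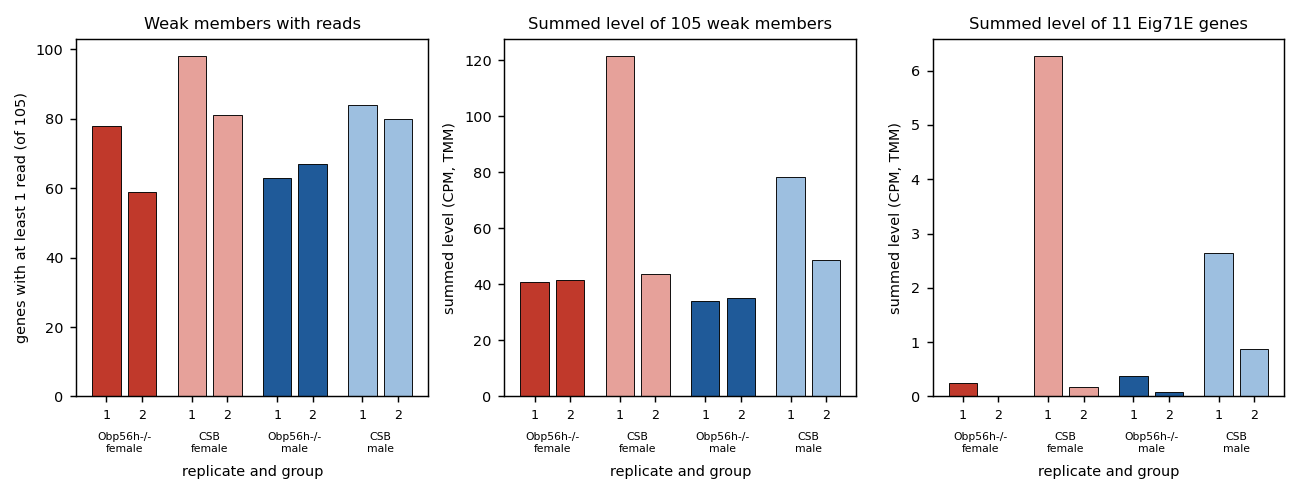
Weak members with at least 1 read, summed level of the 105 weak members and summed level of the 11 *Eig71E* genes (CPM scaled by TMM) in each library, with bars numbered by replicate. Replicate 1 of *CSB* females has the highest bar in all 3 panels (98 genes, 121 CPM and 6.26 CPM), and replicate 1 of *CSB* males the next (84 genes, 78.2 CPM and 2.64 CPM).

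The 5 weak members with the most reads had similar levels in most libraries. *Cpr64Aa* was between 1.75 and 3.01 CPM, *Cpr64Ac* between 1.44 and 2.53 CPM, *Cpr50Cb* between 1.71 and 3.32 CPM, *Cpr51A* between 1.12 and 3.68 CPM and *Cpr76Bd* between 1.07 and 4.42 CPM. The last 3 were highest in replicate 1 of *CSB* females. None of the 5 passed in any contrast. Of all members, 57 had reads in every library.

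Other genes of cuticle formation are given as counts. Of 60 genes for chitin synthesis and assembly, chitin breakdown, tanning and pigmentation, elastic and other cuticle proteins, and steroid and tanning hormone signaling, 57 could be tested. In females 1 was higher and 0 were lower in *Obp56h*-/- flies, against 1.03% of all genes, and 9 had an unadjusted p under 0.05, against 10.7% of all genes, and in males 0 passed by edgeR, 6 having an unadjusted p under 0.05, against 9.15% of all genes. The gene that passed was *ple*, which encodes tyrosine hydroxylase, the first enzyme of the pathway to dopamine and to cuticle tanning and also active in dopaminergic neurons. It was at 202 and 233 CPM in *Obp56h*-/- females against 143 and 137 CPM in *CSB* females (log2 fold change 0.63, edgeR adjusted p = 0.0425), and at 187 and 169 CPM in *Obp56h*-/- males against 155 and 130 CPM in *CSB* males. Averaged over the sexes, 15 of the 57 had an unadjusted p under 0.05, against 18.6% of all genes, and 1 passed. The 14 genes for tanning and pigmentation, *ple* among them, summed to 1047 to 1068 CPM in *Obp56h*-/- females against 868 to 946 CPM in *CSB* females. In males the sums were 984 to 1001 against 847 to 989 CPM. The 14 genes listed under chitin breakdown, *Cht* and *Idgf* genes, had a lower sum, at 1053 to 1066 against 1103 to 1152 CPM in females. In males the sum was at 930 to 962 against 1038 to 1063 CPM. Most of it lay on *Idgf* genes, with *Idgf4* at 440 to 571 CPM and *Idgf6* at 204 to 245 CPM over the libraries. *Cht6*, the highest *Cht* gene, was at 46.8 and 50.3 CPM in *Obp56h*-/- females against 64.4 and 43.3 CPM in *CSB* females. The sum thus does not describe the *Cht* genes. The 15 genes for chitin synthesis and assembly were at 408 to 462 against 369 to 375 CPM in females and overlapped in males. The hormone signaling sum was higher without overlap in males alone. The sum of the 2 genes for elastic and other cuticle proteins, *resilin* and *Acp65Aa*, was lower without overlap in females alone, at 1.31 to 1.33 against 1.82 to 5.62 CPM. The highest value came from replicate 1 of *CSB* females (*resilin* at 4.05 and *Acp65Aa* at 1.57 CPM), which stood apart as described above.

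Between the sexes, 3 of these 57 genes were higher and 2 lower in males, and 6.74% of all genes tested passed in this comparison. Higher were the yellow family genes *yellow-e* (log2 fold change 1.26) and *yellow-f2* (0.63) and *obst-A* (0.61), a chitin-binding scaffold protein. The chitinase genes *Cht2* (-1.75) and *Cht6* (-0.49) were lower. *Cht2* was at 1.61 to 3.52 CPM in males and 7.27 to 10.2 CPM in females, without overlap.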

How the data were processed

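The authors trimmed and filtered reads with AfterQC, screened them for ribosomal RNA, aligned them with GSNAP to release 6 of the *D. melanogaster* genome, assigned unique alignments to genes with Subread and deposited raw counts of 17490 genes in 8 libraries, with gene lengths. Counts were tested here in R 4.3.3 with edgeR 4.0.16: filterByExpr (minimum count 10), TMM, 1 quasi-likelihood model of the 4 groups, and Benjamini-Hochberg adjustment over 13536 genes with a threshold of 0.05. CPM values are TMM-scaled. The test was tried on simulated data. DESeq2 1.42.0 and limma 3.58.1 (voom) were among the alternatives. Columns of values left out were 0. The members and gene lists were chosen with earlier results of these data known. Every well-measured member was named, and of the weak ones those that passed in any contrast, the 5 with most reads and those next to the limit, and list genes that passed between genotypes. Others were named after their values were seen. Positions and classes are from Ensembl release 115 (BDGP6). Labels do not say whether pools came from separate cultures, so p-values measure the spread between libraries. A floor of 3 reads covers counting error only. Replicates differed by more than counting error in each group (chi-square divided by its degrees of freedom, 7.46 to 32.6).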

Additional observations from a re-analysis of the deposited data

How the results depend on the processing

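With 2 libraries a group, counts of members that passed depended on the method and on single libraries. In females 4 passed, and 2 did with library size alone and at an adjusted p under 0.01. In males 1 passed, and the count was 3 by the likelihood ratio test, 3 with counts per kb (GeTMM) and that test, 2 by DESeq2, 4 with no filter on low counts, and 0 by limma's voom, with library size alone, with each sex fitted on its own and at an adjusted p under 0.01. Averaged over the sexes 6 passed, and the count was 19 by the likelihood ratio test, 15 with GeTMM and that test, 10 by DESeq2 and 10 with no filter. Leaving out 1 library gave 1 to 7 members in females, 0 to 5 in males, 0 to 1 for the interaction, 3 to 13 averaged over the sexes and 6 to 12 between the sexes. Which choices caused these changes was not tested. Calls are counted below by member and contrast, so a single member can hold several. Those of the averaged genotype contrast, added after values were seen, are included. Of 24 calls of single members, 9 passed in every alternative and none changed sign.

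Deviations from the group means, matched by replicate number, correlated at 0.41 between *CSB* females and *CSB* males. Between the other pairs of groups the correlations were -0.14 to 0.06. The replicate number thus went with a shared deviation in *CSB*, which the main model did not take into account. With the number as a block, 222 of all genes tested passed in females and 128 in males. With the number as a replicate block, 5 members passed in females, 2 in males, 0 for the interaction, 8 averaged over the sexes and 10 between the sexes.

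Over all genes tested, 140 passed in females and 68 in males, and the range over the alternatives was 64 to 529 and 28 to 769. Of these calls, 57.9% were higher in *Obp56h*-/- females and 51.5% in *Obp56h*-/- males, and with library size alone 48.4% and 38.9%.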
